A study of Mus musculus with 384 samples.

Results

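The series has 331 usable single-cell libraries of the mouse mammary gland, 100 of them from the basal gate, and 84 of these 100 carried a basal keratin, Krt5 or Krt14, at 100 CPM (reads scaled to a common total of reads on genes) or more. These 84 cells were divided by the luminal keratins. In 45 of them (53.6%, exact 95% interval 42.4 to 64.5) Krt8 or Krt18 also reached 100 CPM, and these are called luminal-keratin-positive, or positive, cells here. In the other 39 both luminal keratins were under 100 CPM, and these are called luminal-keratin-low, or low, cells. The sides were chosen on the reads of the same cells, so every difference between them is given as a description. All 84 cells came from 1 sort gate with no animal named in the labels, which makes them 1 sample, and no test was made.

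The series holds Smart-seq2 libraries, a full-length single-cell RNA method, on 1 plate of 384 wells. Basal cells (CD24+CD29Hi) and luminal cells (CD24+CD29Lo) came from the mammary glands of adult Rosa-tdTomato mice. The third gate held CD49f Hi/Lgr5 Hi cells from the skin of female Lgr5-EGFP-IRES-CreER embryos at E14, with the green fluorescent reporter at the Lgr5 locus. Cells with CD45, CD31 or CD140a and cells with DAPI were left out of the sort, and each gate also had 1 well of 50 cells. The labels give no age in weeks, no animal and no pooling for the adult mice.

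Keratins are the proteins of the epithelial intermediate filaments, and a type II keratin pairs with a type I keratin. In the mammary gland Krt5 with Krt14 marks the outer basal layer, whose myoepithelial cells contract to move milk, and Krt8 with Krt18 marks the inner luminal layer. Cells with both pairs are common in the embryonic gland, and in adults they are discussed as intermediate, plastic or bipotent cells.

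In GRCm38, with the GENCODE M21 annotation, Krt8 lies on chromosome 15 from 101996698 to 102004482 on the minus strand, and Krt18 lies beside it from 102028180 to 102032027 on the plus strand. Krt5 is on the same chromosome from 101707070 to 101712898, and Krt14 is on chromosome 11 from 100203162 to 100207548. All 4 are protein-coding genes. A processed pseudogene, Krt8-ps, had 7 reads in positive cells and 0 in low cells, against 9739 and 269 reads of Krt8.

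Most positive cells carried only 1 of the luminal pair. Krt8 alone reached the threshold in 24 cells, Krt18 alone in 13 and both in 8. Krt18 was at 100 CPM or more in 8 of the 32 cells with Krt8 and in 13 of the 52 cells without it, which is 25% in each case. In the luminal gate 97.2% of cells (exact interval 92.1 to 99.4) had both. Among the 8 basal cells with both, Krt8 ran from 239 to 769.8 CPM with a median of 456, and Krt18 from 205 to 826 with a median of 469.6.

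The luminal keratin level of the positive cells was far below that of luminal cells. The higher of Krt8 and Krt18 had a lowest value of 104.8 CPM, a median of 456 and a highest value of 2113 in the positive cells. In the luminal gate the same measure ran from 438 to 16391 CPM with a median of 6079. The ranges overlapped: 24 of 45 positive cells lay above the lowest luminal cell, but only 2 of 45 reached 1000 CPM, against 97.2% of luminal cells. There was no gap at the threshold. The 4 cells just outside it had 91.03, 97.1, 97.9 and 99.9 CPM, and the 4 just inside had 104.8, 116.4, 129.7 and 134.6 CPM. Most low cells were not at 0 either, since 31 of 39 had at least 1 read of Krt8 or Krt18 and 5 reached 50 CPM. Over 4 wells without a cell there was 1 read of Krt8 and none of Krt18.

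**Figure D1:**
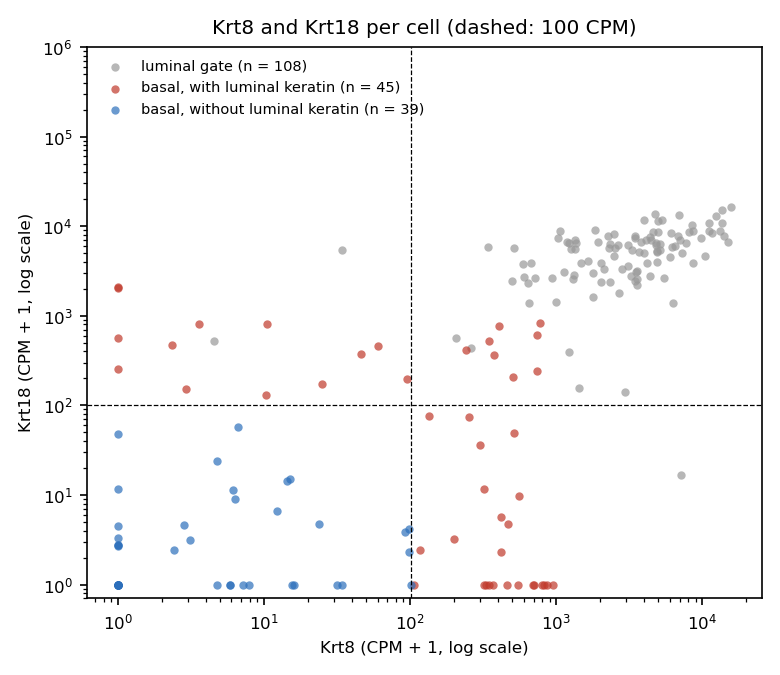
Krt8 (x axis) and Krt18 (y axis) in each cell as CPM + 1 on log scales, for 45 positive basal cells, 39 low basal cells and the luminal cells, with dashed lines at the 100 CPM threshold. Positive cells lie mostly along 1 axis or the other, while 97.2% of luminal cells lie above both lines.

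The basal keratins stood at similar levels on both sides. Krt5 ran from 31.9 to 3157 CPM with a median of 579 in the positive cells and from 1.69 to 2234 with a median of 603 in the low cells. Krt14 ran from 0 to 10423 CPM with a median of 1825 in the positive cells and from 4.85 to 10588 with a median of 1349.5 in the low cells. Both ranges overlapped almost fully, and the summed level of Krt14 was 2744 CPM in positive and 2736 CPM in low cells. Both basal keratins reached the threshold in 37 of 45 positive and 30 of 39 low cells.

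The positive cells were more deeply sequenced and held more genes. Reads on genes ran from 93258 to 1466484 with a median of 661791 in the positive cells and from 74436 to 1060530 with a median of 351537 in the low cells. Genes with a read ran from 1508 to 6807 (median 3424) in the positive cells and from 1584 to 4387 (median 2529) in the low cells. With every cell thinned to 50000 reads the medians were 2478 and 1854 genes, so the difference was present at equal depth as well. Reads on genes per spike-in read, a measure of the RNA in the well, had medians of 14.6 and 7.34. The percentage of mitochondrial reads had medians of 5.64 and 5.66.

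The side of a cell moved with its depth. Positive cells made up 28 of the 42 cells at or over the median of reads and 17 of the 42 under it. They were 30 of the 42 cells at or over the median of genes and 15 of the 42 under it. Assigning the sides from 50000 reads per cell gave 48 positive cells, with 44 of the 45 kept and 4 of the 39 low cells added. The part of RNA content, capture or doublets in these differences was not tested, and no doublet caller was run. On the plate, row D held 14 positive and 5 low cells, rows A, B, C, E and F held 5 to 7 positive and 3 to 9 low cells each, and 1 positive cell stood in row O.

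**Figure D2:**
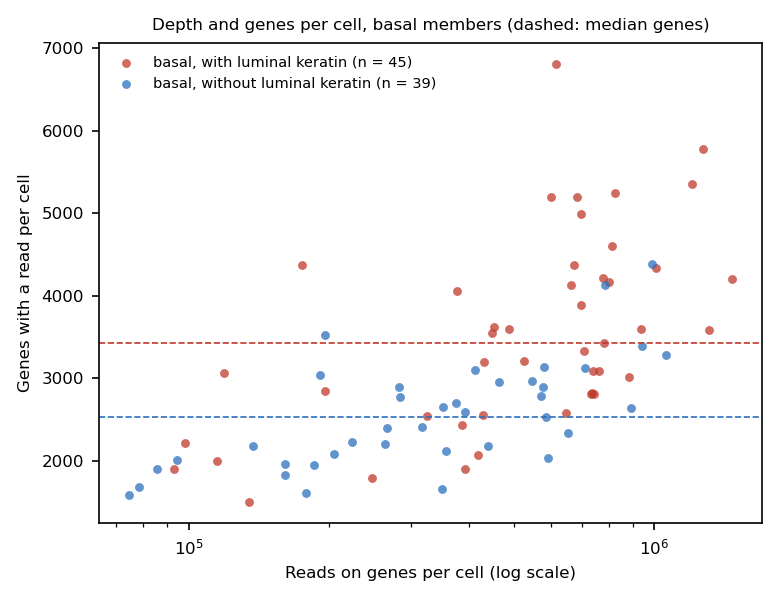
Genes with a read (y axis) against reads on genes (x axis, log scale) for each basal cell, red with and blue without a luminal keratin; dashed lines are the group medians of 3424 and 2529 genes. The groups overlap, and the cells with the most genes are positive cells.

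Each cell was compared with the 3 wells of 50 cells by Spearman correlation over 10315 genes. The basal well was the best match of 42 of 45 positive cells and 39 of 39 low cells. The difference between the correlation with the basal well and that with the luminal well had a median of 0.070 in positive cells, 0.068 in low cells and -0.12 in luminal cells. The basal label also held for Acta2, the smooth muscle actin of myoepithelial cells, which at 50000 reads was seen in 44 of 45 positive and 38 of 39 low cells. The correlation itself was higher in positive cells with both wells, with medians of 0.392 and 0.354 for the basal and 0.327 and 0.284 for the luminal well in positive and low cells, and only the difference between the wells was level. There were 3 positive cells whose best match was the well of another gate. The cell that matched the luminal well carried Acta2 at 3972 CPM together with the luminal genes Krt19 at 429.6, Epcam at 428, Prlr at 419 and Cldn4 at 625 CPM. Basal cells 1 and 10 matched the embryonic well and carried the mitotic cyclin gene Ccnb2 at 516 and 1145 CPM. For cell 1 the correlations were close, 0.386 with the embryonic and 0.378 with the basal well. Its Acta2, at 32585 CPM, was the highest of either side. For cell 10 the correlations were 0.538 with the embryonic and 0.392 with the basal well. Results that rest on these cells are given with and without them.

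The wells of 50 cells hold the same gates without the choice of single cells. The basal well had Krt8 at 449 and Krt18 at 633 CPM, and the luminal well had 5394 and 8776 CPM. Summed over the 84 cells, Krt8 stood at 229.5 and Krt18 at 168 CPM, below the basal well. Over all 100 usable basal cells the sums were 925 and 735 CPM. The 16 basal cells without a basal keratin held 79.8% of the Krt8 reads and 81.4% of the Krt18 reads of the gate, with 18.8% of its reads on genes. Of these 16, 7 had a luminal keratin at 1000 CPM or more and matched the luminal well, and 5 carried 3 or more endothelial markers.

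Across all other genes the 2 sides were compared by reads summed over cells and scaled to CPM, with a log2 ratio on a prior of 1 CPM. Of 10963 genes at 5 CPM or more on either side, 3372 (30.8%) were at least 2-fold higher in the positive cells and 2579 (23.5%) at least 2-fold lower, and the median log2 ratio of all genes was 0.11. Without the 3 cells that matched another gate, 3300 of 10890 genes (30.3%) were higher and 2638 (24.2%) lower. Scaling to spike-in reads raised the median of all genes to 0.55 and gave 4318 higher and 1871 lower genes, so that 69.8% of the genes past 2-fold were higher, against 56.7% with gene reads. Among cells with 2000 to 4000 genes, an alternative chosen after seeing the data, 3189 genes were higher and 3251 lower, which is 49.5% higher. With so large a share of all genes past 2-fold, a single gene past it is no finding, and the spread over cells is given beside each gene. Intervals of folds cover counting error only, since amplified reads are not independent molecules.

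These genes were next compared between the luminal and the basal well of 50 cells. Neither well had a replicate, so a 2-fold difference does not assign a gene to a gate. The basal well also held some genes that were scarce in positive and low cells. Fabp4, an endothelial marker, had 5195 CPM in that well, against 65.7 in positive and 8.93 in low cells. Prlr had 761 CPM in that well, against 11.6 in positive and 0.56 in low cells. Of 8674 genes measured in the adult wells of 50 cells, 23.6% were at least 2-fold higher in the luminal than in the basal well and 40.6% at least 2-fold lower. Among genes higher in the positive cells, 704 of 2422 (29.1%) were higher in the luminal well and 41.5% lower. Among genes lower in the positive cells the shares were 28.2% (493 of 1751) and 41.7%. Genes of both directions thus had nearly the same make-up. Those within 2-fold had 18.9% higher and 39.6% lower.

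**Figure D3:**
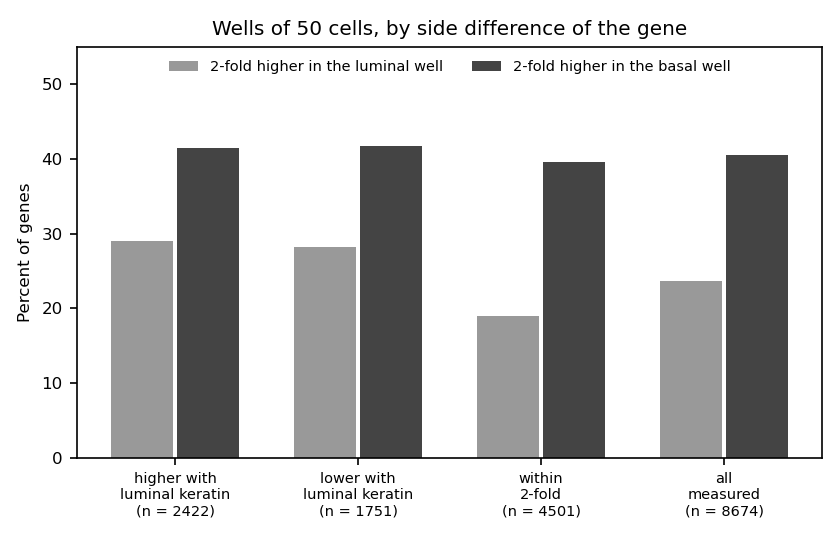
Percent of genes at least 2-fold higher in the luminal (grey) or in the basal (dark) well of 50 cells, for genes higher, lower or within 2-fold in positive against low basal cells and for all 8674 genes. The grey bars of the higher and lower genes stand at 29.1% and 28.2%.

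The other genes of luminal cells were taken in groups. Of the other luminal keratins, Krt19 had 38.8 CPM in positive and 4.12 in low cells, and at 50000 reads it was seen in 4 and 1 cells. Its log2 ratio of 2.96 became 1.12 without the 3 cells that matched another gate. Krt7 had 4.60 and 7.37 CPM and Krt23 44.1 and 75.1 CPM, both past neither line, with log2 ratios of -1.66 and -1.23 without the 3 cells. Of the 5 luminal transcription factors measured, 1 was higher and 2 were lower, beside 30.8% and 23.5% of all genes, with a median log2 ratio of -0.45 (-0.03 on spike-in scaling). The 3 cells left out, 0 of 4 were higher and 1 was lower. Gata3, a master regulator of luminal fate, ran from 0 to 953 CPM with a median of 133.5 in positive cells and from 0 to 2369 with a median of 134.3 in low cells. Grhl2, a regulator of epithelial junctions, had 26.3 and 89.2 CPM and was seen at 50000 reads in 4 positive and 9 low cells. Ehf was higher through 1 cell, with 7.25 against 0.19 CPM and a log2 ratio of 0.20 without the 3 cells. Cebpb had 97.2 and 199.7 CPM, with medians over cells of 75.7 and 62.2, and its log2 ratio of -1.03 became -0.91 without the 3 cells.

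Of 10 luminal surface and junction genes 3 were higher and 3 lower, near the 30.8% and 23.5% of all genes. Epcam, an epithelial adhesion molecule, ran from 0 to 1986 CPM (median 58.7) in positive cells and from 0 to 2849 (median 21.2) in low cells, and the summed levels were 276 and 265 CPM. Cd9, a tetraspanin, had 1149 and 1017 CPM. Cd24a, whose protein was used in the sort, had 284 and 368 CPM. Cldn4, a tight junction claudin, had 16.4 and 0.56 CPM, and its log2 ratio of 3.48 became 0.36 without the 3 cells. Tspan8, a tetraspanin used to divide mammary stem cell populations, had 618 and 133.01 CPM, but both medians were 0 and it was seen in 7 positive and 4 low cells. With 1 cell at 34.3% of its reads, this difference rested on few cells. The 3 lower genes were Cldn7 (1.23 and 7.31 CPM), Ceacam1 (1.23 and 12.2 CPM) and St14 (40.6 and 98.9 CPM).

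Among hormone-sensing luminal genes 4 of 6 were higher and 2 lower, beside 30.8% and 23.5% of all genes, with a median log2 ratio of 1.70. Leaving out the 3 cells, 2 of 4 were higher and 2 lower, with a median of 0.14. Esr1, the estrogen receptor, had 54.1 and 12.2 CPM and was seen in 6 positive and 1 low cells, with 51.1% of its reads in 1 cell. Prlr, the prolactin receptor, had 11.6 and 0.56 CPM, and its log2 ratio fell from 3.02 to 0.62 without the 3 cells. Pgr, the progesterone receptor, had 65.3 and 25.1 CPM in 6 and 5 cells. The 2 lower genes were Cited1, at 4.64 and 15.0 CPM, and Prom1, at 21.5 and 48.9 CPM, each seen in 1 cell per side. In the secretory list 4 of 11 genes were higher and 3 lower, near the shares of all genes. Lcn2, an iron-siderophore binding protein of the milk, ran from 0 to 11021 CPM (median 2078) in positive and from 0 to 7651 (median 2432) in low cells, a near equal level. Mfge8, a milk fat globule protein, had 559 and 312 CPM. Spp1 (15.7 and 192 CPM) was lower through 1 low cell that held 99.5% of that side's reads, and its log2 ratio was 0.10 when each cell had the same weight. Xdh, a milk fat droplet enzyme, had 54.6 and 233 CPM in 6 cells of each side.

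The contractile genes of the myoepithelial cell are the smooth muscle genes with which it squeezes the alveolus. Of 14 measured, 4 were at least 2-fold higher and 0 lower, beside 30.8% and 23.5% of all genes, so the count was near the background for higher genes. The median log2 ratio was 0.60 beside 0.11 for all genes. Acta2 ran from 75.1 to 32585 CPM with a median of 12514 in positive cells and from 28.6 to 25340.1 with a median of 6738 in low cells. The ranges overlapped, and the summed level was 1.93-fold higher (counting interval 1.92 to 1.95). Cnn1, calponin, ran from 0 to 5034 CPM (median 793) in positive and from 0 to 2962 (median 106.1) in low cells, 2.10-fold higher in sum. At 50000 reads it was seen in 38 of 45 and 22 of 39 cells. Myl9, a regulatory light chain of myosin, had medians of 1457 and 659.5 CPM and was 2.11-fold higher, with a log2 ratio of 0.98 without the 3 cells, where 3 of 14 genes were higher. Pdlim3, a protein of the actin cytoskeleton, had medians of 251 and 7.54 CPM and was seen in 29 and 11 cells. Actg2, the enteric smooth muscle actin, had 155 and 16.4 CPM in 7 and 1 cells, with 36.1% of its reads in basal cell 10. Tpm2, a tropomyosin, had 3044 and 2033 CPM, and Mylk, the kinase of the myosin light chain, had 1701 and 1107 CPM with the higher median in the low cells (1287 and 1360). Depth and genes per cell also differed between the sides, and their part in these levels was not tested. The median log2 ratio of the list was 0.38 in cells with 2000 to 4000 genes and 1.02 on spike-in scaling.

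Most basal matrix and secreted genes had the higher sum in the positive cells, and Igfbp5 and Chil1 had it in the low cells. Of 13, 3 were higher (Vim, Postn and Igfbp2) and 0 lower, beside 30.8% and 23.5% of all genes, with a median log2 ratio of 0.43. Vim, the intermediate filament protein vimentin, ran from 0 to 2659 CPM (median 116.9) in positive cells and from 0 to 1721 (median 4.55) in low cells. It was 3.98-fold higher in sum (3.81 to 4.16) and was seen in 23 and 11 cells. Postn, a matrix protein, had medians of 1234 and 250.4 CPM and was 2.11-fold higher. Its log2 ratio of 1.08 became 0.72 when each cell had the same weight and 0.78 in cells with 2000 to 4000 genes. Lgals1, a galectin, had 442 and 231 CPM and was seen in 23 and 9 cells. Igfbp2 had 416 and 103.1 CPM, but basal cell 1 held 66.6% of its reads on the positive side. Without the 3 cells that matched another gate its log2 ratio of 2.00 became 0.56, and 2 of the 13 genes were higher. Igfbp5, which binds insulin-like growth factors, went the other way, with medians of 3369 and 6199 CPM, and was 1.83-fold higher in the low cells. Apoe (8282 and 7279 CPM) and Sparc (6998 and 5915 CPM) were close on the 2 sides. Chil1 had 6793 and 7740 CPM with gene reads as the total and changed sign on spike-in scaling.

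**Figure D4:**
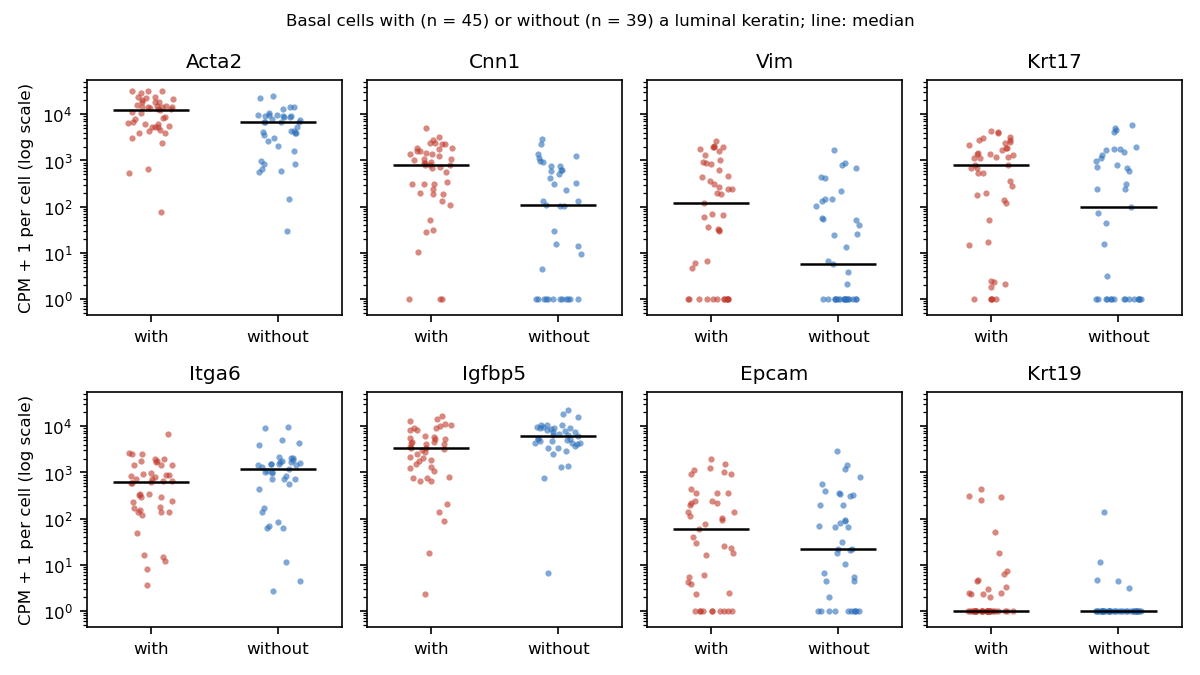
CPM + 1 on a log scale in each of 45 positive (with) and 39 low (without) basal cells for Acta2, Cnn1, Vim, Krt17, Itga6, Igfbp5, Epcam and Krt19, with a line at the median. Acta2, Cnn1, Vim and Krt17 have the higher median in the positive cells and Itga6 and Igfbp5 in the low cells, and the points of both sides overlap in every panel.

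Regulators and adhesion genes of the basal cell had medians near 0, with members on both sides of it. Of 7 basal transcription factors measured, 0 were higher and 1 was lower, and the median log2 ratio of 0.12 became -0.45 without the 3 cells. Trp63, the p63 regulator of basal fate, ran from 0 to 3687 CPM (median 190) in positive and from 0 to 4301 (median 149) in low cells, 614 against 467 CPM in sum. Sox9 had 394 and 362 CPM, Id4 239 and 331 CPM and Snai2 196 and 142 CPM. Sox9 and Snai2 turned sign when each cell had the same weight, and Snai2 also went from a log2 ratio of 0.47 to -0.45 without the 3 cells. None of the 13 hemidesmosome, laminin and basement membrane genes passed 2-fold in either direction, beside 30.8% and 23.5% of all genes. With the 3 cells left out 1 did, Plec, at a log2 ratio of 1.12. The median log2 ratio of that list was -0.20, and 0.22 on spike-in scaling. Itga6, the CD49f integrin, had medians of 612 and 1161 CPM and was 1.64-fold higher in the low cells. Plec (229 and 115.1 CPM), Lamb3 (201 and 113.3 CPM) and Dst (1234 and 842 CPM), linkers and laminins of the hemidesmosome, had higher sums in the positive cells, and Lama3 (237 and 403 CPM) and Col17a1 (470.1 and 589.5 CPM) in the low cells. Col17a1 changed sign on spike-in scaling, and Lamb3 did so in cells with 2000 to 4000 genes. Krt17, a further basal keratin, had medians of 784 and 98.7 CPM, was seen in 33 and 20 cells and was 1.37-fold higher in sum, with a log2 ratio of -0.01 in cells with 2000 to 4000 genes.

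Cell cycle genes were higher through few cells. Of 13 measured, 10 were higher and 2 lower, beside 30.8% and 23.5% of all genes, with a median log2 ratio of 3.50. Without the 3 cells 6 were measured, of which 2 were higher and 2 lower, with a median of 0.75, and the median was 0.42 in cells with 2000 to 4000 genes. Mki67, a marker of cycling cells, had 1715 reads in positive and 1 read in low cells, 53.3% of the former in basal cell 1. At 50000 reads it was seen in 4 and 0 cells. Ccnb2 had 50.1 CPM in positive cells and 0 reads in low cells, which is at least 267-fold higher against a floor of 3 reads over the low side, and 50.9% of the reads were in basal cell 10. Without the 3 cells Ccnb2 had 0.16 CPM in the positive cells, and the log2 ratio of Mki67 was 4.86 against 5.89. Replication genes went both ways. Pcna, the polymerase clamp, had 37.2 and 84.9 CPM. Mcm7, a helicase subunit, had 100.95 and 42.7 CPM, and its log2 ratio of 1.22 became 0.85 without the 3 cells.

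Signalling genes were taken from the Wnt, Notch and EGF pathways. Of 11 Wnt and stem cell genes 1 was higher and 1 lower, both shares under those of all genes. Lgr5 had 261 and 221 CPM, seen in 13 and 9 cells, Lgr4 259 and 274 CPM, and the secreted Wnt inhibitor Wif1 351 and 348 CPM. Lgr6, a related receptor and the higher gene of the list, had 252 and 89.03 CPM and was seen in 14 and 8 cells. The lower gene was Axin2, at 5.98 and 20.6 CPM, seen in 1 cell of each side. Of 7 Notch genes 1 was higher and 2 lower, beside 30.8% and 23.5% of all genes. Hes1 was the higher one, at 31.1 and 13.6 CPM, seen in 4 and 4 cells. The lower ones were Hey1, at 2.36 and 31.2 CPM in 0 and 2 cells, and the receptor Notch1. Notch1, a luminal fate regulator, had 14.6 and 60.98 CPM in 3 and 6 cells. The ligand Jag1 was within 2-fold, at 273 and 212 CPM. Egfr, the receptor of EGF, had 157 and 331 CPM, yet its median was 74.98 in positive and 26.9 in low cells, so the sum and the median went opposite ways. Its log2 ratio of -1.07 became -0.95 without the 3 cells.

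Immediate early and heat shock genes, which cell dissociation can switch on, were taken as 1 list. Of 15, 0 were at least 2-fold higher and 1 was lower, beside 30.8% and 23.5% of all genes, with a median log2 ratio of -0.40 that became 0.02 on spike-in scaling. Junb ran from 5.17 to 2068 CPM (median 342) in positive cells and from 43.1 to 3078 (median 854) in low cells, 2.27-fold higher in the latter. Its log2 ratio was -0.76 on spike-in scaling. Fos had medians of 4004 and 5796 CPM, Egr1 3235 and 4349 CPM, and Ier2 433 and 492 CPM. Of 8 genes of class I antigen presentation 2 were higher and 0 lower, with B2m, the light chain, at 1161 and 1136 CPM. Of 13 glycolytic enzymes 0 were higher and 1 was lower, with Gapdh at 513 and 301 CPM and Aldoa, seen in 31 and 15 cells, at 477 and 348 CPM.

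**Figure D5:**
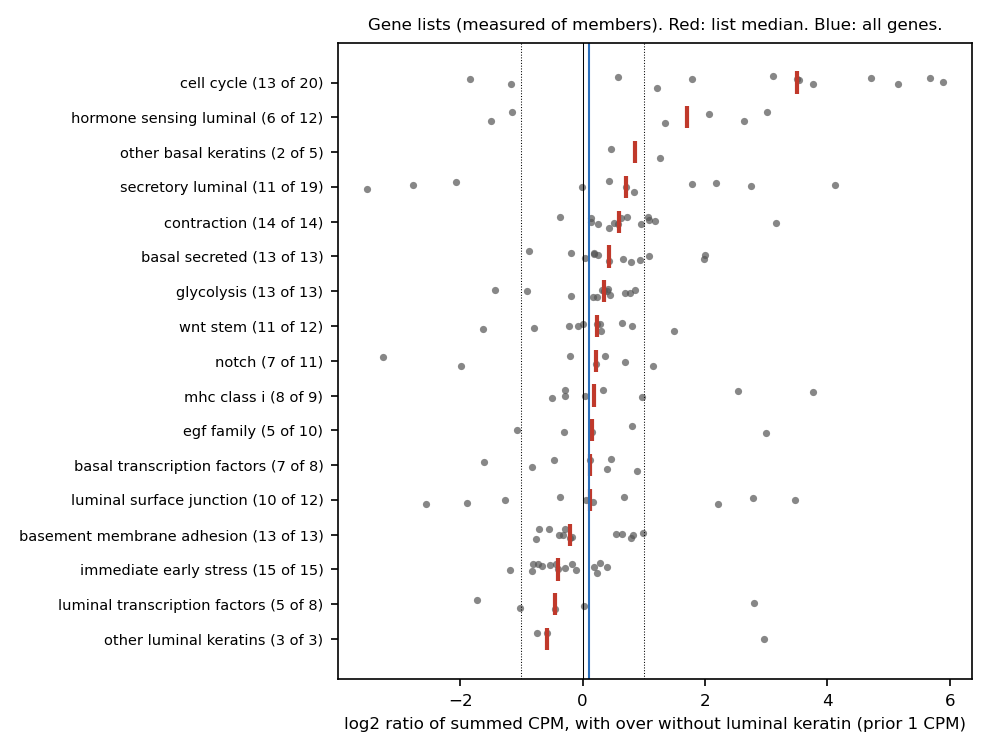
Log2 ratio of summed CPM, positive over low cells, for each measured member of the 17 gene lists (points), with the list median in red and the median of all genes, 0.11, in blue; dotted lines mark 2-fold. Cell cycle and hormone-sensing luminal genes have the highest medians, 3.50 and 1.70, which became 0.75 and 0.14 without the 3 cells that matched another gate. The medians of contraction genes and of immediate early and heat shock genes lie on opposite sides of the blue line.

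The genes with the largest ratios, among those at 50 CPM or more on the higher side and at 10 CPM or more in 30% of its cells, were carried by few cells. Nectin3, an adhesion molecule, had 182 and 1.87 CPM and was seen at 50000 reads in 7 positive and 0 low cells, with 91.1% of its reads in 5 cells. Elovl1, a fatty acid elongase, had 149 and 2.31 CPM in 11 and 1 cells. Hacd1, an enzyme of very long chain fatty acid synthesis, was spread more widely, at 98.2 and 6.19 CPM in 11 and 0 cells, with a median of 29.01 CPM in positive and 0 in low cells. Fam49b, Mtx2, Stk25 and Dab2 were seen in 9, 9, 10 and 9 positive and in 0, 0, 2 and 0 low cells. In the other direction, Sf3b3, a splicing factor subunit, had 19.2 and 235 CPM in 1 and 9 cells, with 56.2% of the reads in 1 low cell. Adi1, an enzyme of methionine salvage, had 33.8 and 208 CPM in 6 and 11 cells, and Ifnar1, an interferon receptor chain, 17.9 and 123.6 CPM in 3 and 9 cells. Bcl2, Srrt, Etv6 and Thra were also higher in the low cells, and each was seen in 5 to 8 of them. Etv6 turned sign, to 0.54, with a keratin threshold of 50 CPM.

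The number of cells with a gene was also counted at equal depth. Over 1922 genes seen in at least 20% of the 84 cells at 50000 reads, the share of cells with the gene was a median of 8.03 percentage points higher in the positive cells. It was at least 20 points higher for 249 genes (13%) and at least 20 points lower for 6 (0.312%). In cells with 2000 to 4000 genes the median was 5.03 points, with 234 of 1813 genes (12.9%) higher and 45 (2.48%) lower. The share was thus shifted for genes in general. The following genes were chosen after their values were seen, from the top and bottom of that order. Capzb, which caps actin filaments, was seen in 35 positive and 13 low cells, Anxa5, an annexin, in 32 and 12, and Foxo1, a transcription factor, in 32 and 12. Gsn, gelsolin, was seen in 33 and 14 cells, Pdlim3 in 29 and 11 and Ctnnb1, beta-catenin, in 32 and 15. At the other end were Ext1, a heparan sulfate polymerase, in 10 and 17 cells, Usp25, a deubiquitinase, in 7 and 14, and Junb in 33 and 35, a difference of -16.4 points.

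Most markers of other cell types were low on both sides. An exception was Sox10 of the Schwann cell list, at 123.7 and 154.6 CPM. It reached 100 CPM in 17 positive and 10 low cells. Of 10 endothelial markers 4 were measured and all 4 were higher in the positive cells, beside 30.8% of all genes. Their list summed to between 0 and 8108 CPM per positive cell and between 0 and 166 CPM per low cell, both with a median of 0, and 1 positive cell carried 3 or more of them. Of 8 fibroblast markers 4 were measured and 2 were higher, with sums from 0 to 1765 and from 0 to 605 CPM per cell, and Lum, Dpt and Pi16 were at 0 reads. The immune markers Ptprc, Lyz2 and Cd3e were at 0 reads on both sides, as were Adipoq and Plin1 of adipocytes. Without the cell with endothelial markers, 3351 genes were higher and 2576 lower.

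Both keratin pairs were seen in the other gates as well. A cell with a basal and a luminal keratin at 100 CPM or more was found in 7.41% of luminal cells (8 cells, exact interval 3.25 to 14.1) and in 64.2% of embryonic cells (79 cells, 55.1 to 72.7). By the same measure 45 of the 100 usable basal cells had both.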

How the data were processed

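The authors deposited 1 table of raw read counts per gene and well, with 49585 genes, 92 ERCC spike-in sequences and 384 wells, each with its own index pair. Per the submitters' processing notes, cutadapt 1.13, STAR 2.5.2b and HTSeq 0.6.0 were used with GRCm38. For their options, the annotation and the strand mode nothing is given in the sources used here, and genes that overlap or lie antisense cannot be told apart. Per the labels' protocols, RNA was primed with oligo-dT and amplified before Nextera XT. There were no molecular identifiers, so intervals cover counting error only.

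Gene symbols came from GENCODE M21, matched on 43749 identifiers exactly and on 5577 without the version, with 259 unmatched. A basal well needed 50000 reads on genes or more (spike-ins left out), at least 1500 genes and at most 20% mitochondrial reads, which left out 18 of 118. By the same limits 108 luminal and 123 embryonic cells were usable. CPM are reads scaled to a total of 1000000 on genes. Levels of a side are summed reads scaled to CPM. Ratios used a prior of 1 CPM for log2 values, a minimum of 5 CPM on either side and 2-fold as the line for a call, and folds are CPM ratios with exact conditional 95% intervals. Shares have Clopper-Pearson intervals. Shares of cells with a gene were counted after thinning every cell to 50000 reads, with 5 reads as detection (random seed 1). The ratio script was tested on simulated data. Python 3.11.15, numpy 2.4.6, pandas 2.3.3, scipy 1.17.1 and, for TMM factors, edgeR 4.0.16 in R 4.3.3 were used.

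The members, the 17 gene lists and the 9 marker lists were chosen with earlier results of these data known. The naming rule took the 12 highest and 12 lowest log2 ratios among genes at 50 CPM or more on the higher side and at 10 CPM or more in 30% of its cells, with and without the wells that matched another gate, and up to 4 members of each list by level and any few against its direction. It gave 134 genes, of which 77 are described, and the others are not reported here. The alternatives were other scalings, cell weights, filters, priors and keratin thresholds, and 4 of 20 settings were chosen after seeing the data. Of the marker lists, those of pericytes, immune cells, Schwann cells, melanocytes, red blood cells and suprabasal skin had 1, 1, 1, 0, 0 and 1 members measured, none of them higher in the positive cells. No adipocyte marker had a read.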

Additional observations from a re-analysis of the deposited data

How the results depend on the processing

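No paired analysis was possible because both sides come from 1 gate, share no replicate numbers and enter no test. Leaving out a replicate was not possible for the same reason, since the gate is 1 sample. The counts of higher and lower genes stayed within 1.5 times under TMM scaling, equal cell weight, thinning, no minimum level, a prior of 5 CPM, the 200000-read filter and plate rows A to F. List medians and genes are log2 ratios of positive over low cells, and the cause of each change below was not tested. A stricter keratin rule also leaves fewer positive cells, and the part of that was not tested either.

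Of the scalings and weights, the mean of per-cell CPM gave an EGF family median of 1.09 and Spp1 0.10, and thinning gave 1.02 and 0.21. Spike-in totals, chosen after seeing the data, gave medians of 1.27 for the other basal keratins, 1.02 for contraction and 1.04 for the secretory list. The list of other basal keratins had only 2 measured genes in the main setting, Krt17 and Krt15, with a median of 0.86. Without the wells that matched another gate the medians were -1.23 for the other luminal keratins, 0.14 for the hormone-sensing list and 0.75 for the cell cycle. Without the highest cell, Krt7 was 2.23 and Spp1 3.01. Cnn1, at 0.81, and Postn, at 0.94, were among the genes that came back within 2-fold there.

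Thresholds of 50 and 200 CPM gave medians of 1.65 and 1.12 for the other basal keratins, and Etv6 was 0.54 at 50 CPM. Sides assigned at 50000 reads gave 1.78 for the other basal keratins, 0.67 for Etv6 and -0.033 for Mcm7. Without the need for a basal keratin the medians were 4.15 for the other luminal keratins, 1.18 for the other basal keratins, 2.04 for the luminal surface list, 2.16 for the secretory list and 2.12 for the EGF family, with Mtx2 at -0.34, Krt7 at 4.15 and Spp1 at 2.16.

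With both luminal keratins needed, 8 cells were positive and 4022 genes lower. The medians were 1.33 for the other luminal keratins, 1.68 for the other basal keratins and -1.29 for luminal transcription factors. They were -1.26 for Notch, 1.68 for the EGF family and -1.10 for immediate early and heat shock genes. Stk25 was -0.65, Krt7 1.33, Igfbp2 -0.31, Tspan8 -0.55, Epcam -1.49, Pgr -1.45, Esr1 -0.13 and Jag1 -1.26.

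The next alternatives were chosen after seeing the data. Cells with 2000 to 4000 genes left 24 positive cells, with medians of -0.77 for the hormone-sensing list and 0.42 for the cell cycle. The 24 cells with Krt8 only gave medians of -2.31 for the other luminal keratins, -1.29 for luminal transcription factors, 0.10 for the hormone-sensing list and 0.67 for the cell cycle, and Ehf was -0.25. The 13 cells with Krt18 only gave 3921 lower genes and medians of -1.73, -2.40, -1.21 and -1.08 for the other luminal keratins, other basal keratins, luminal transcription factors and hormone-sensing list. There Igfbp2 was -6.52, Lgals1 -1.15, Ehf -0.25, Tspan8 -0.12, Cldn4 -0.14, Prlr -0.011 and Lgr5 -1.67.

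At 1000 CPM only 2 cells were positive against 82, with 1184 genes higher and 8066 lower, so these values describe 2 cells. The medians were -4.79 for the other luminal keratins, -3.89 for the other basal keratins, -3.46 and -2.44 for basal and luminal transcription factors, -2.60 for the luminal surface, -3.27 for the hormone-sensing and -2.16 for the secretory list, -3.33 for the cell cycle, -3.65 for Wnt, -4.21 for Notch, -3.03 for the EGF family and -3.12 for glycolysis. Nectin3 was -6.90, Fam49b -4.87, Mtx2 -1.08, Stk25 -5.88, Hacd1 -6.06, Bcl2 0.30, Dab2 -5.37, Krt19 -4.79, Krt17 -2.09, Myl9 -0.11, Actg2 -6.75, Pdlim3 -0.51 and Trp63 -3.68. Sox9 was -2.86, Snai2 -6.49, Igfbp2 -8.27, Ehf -2.53, Tspan8 -8.82, Cldn4 -2.55, Esr1 -5.35, Prlr -2.11, Mcm7 -5.35, Pcna 0.42, Mki67 -5.37 and Ccnb2 -5.06. Wif1 was -8.49, Lgr4 1.56, Lgr5 -7.98, Jag1 -8.01 and Egfr 0.10. Over the genes described, 1339 further values in all settings stayed on their side of the 2-fold line, 69 of them with another sign, while 57 moved past it and 87 came back within it.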

Other observations

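The positive cells with Krt8 only and those with Krt18 only differed in their other values as well, a division chosen after seeing the data and not tested. Genes with a read had medians of 3439.5 in the 24 cells with Krt8 only, 3092 in the 13 with Krt18 only and 4407 in the 8 with both. Krt5 had medians of 629.6, 316 and 723 CPM in the same order. Against the same 39 low cells, the log2 ratio of the matrix gene Postn was 1.46 with Krt8 only and 0.21 with Krt18 only, and that of Cnn1 was 0.85 and 0.34. Vim stood at 1.98 and 1.54, and Junb at -1.30 and -0.81. Esr1 was 0.10 with Krt8 only and 3.70 with Krt18 only, but 51.1% of its reads in positive cells came from 1 cell.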
